A study of Mus musculus with 6 samples.

Results

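The angiopoietin-TIE system was examined in retinal vascular endothelial cells (VECs) through 5 genes, Angpt1, Angpt2, Tek, Tie1 and Ptprb, which were selected by symbol from the 55487 genes of the deposited RNA-seq table. The cells came from P7.5 mouse pups given tamoxifen from P0.5 to P2.5. Control pups were tdTomato FL/+;Pdgf-icreER, and Bmal1;CKO pups were Bmal1 FL/FL;tdTomato FL/+;Pdgf-icreER, so that the reporter, the transgene and tamoxifen were common to both groups and homozygous floxed Bmal1 alleles were carried by the mutants. The Pdgf-icreER transgene supplies an inducible Cre recombinase together with GFP in endothelial cells, and cells positive for both GFP and tdTomato were sorted. Each group had 3 libraries, and the numbers of the table are used here, with 1 to 3 being control and 4 to 6 being Bmal1;CKO. The mice were on a C57BL/6 J background.

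Angiopoietins are secreted proteins that act on the endothelial receptor tyrosine kinase TIE2, which is encoded by Tek. ANGPT1, made largely by pericytes and other mural cells, activates TIE2 and favours vessel quiescence through PI3K and AKT, which keep the transcription factor FOXO1 out of the nucleus. ANGPT2 is made and stored by endothelial cells, is abundant at sprouting fronts, and can act as a weak agonist or as an antagonist of TIE2. TIE1 binds no angiopoietin with high affinity and modulates TIE2 within a receptor complex, and VE-PTP, the product of Ptprb, is the receptor phosphatase that removes phosphate from TIE2 and from VE-cadherin. In the retina these genes are known for their part in vessel sprouting, remodeling and maturation.

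All positions are on GRCm38 in the GENCODE M21 annotation. Tek (ENSMUSG00000006386) lies on the forward strand at chr4:94739289-94874976, and Tie1 (ENSMUSG00000033191) lies on the reverse strand of the same chromosome at chr4:118471191-118490061. Angpt1 (ENSMUSG00000022309) is at chr15:42424723-42676977 and Angpt2 (ENSMUSG00000031465) at chr8:18690263-18741562, both on the reverse strand. Ptprb (ENSMUSG00000020154) is on the forward strand at chr10:116275523-116389535. Angpt2 sits inside Mcph1 on the opposite strand without a shared exon base, whereas Angpt1 shares 737 exon bases, 14.2% of its exon length, with the antisense gene Gm17473, whose level did not exceed 0.864 normalized counts in any library. Whether the counting used strand is not given in the sources used here. Ptprb contains Gm47625 and the small nucleolar RNA gene Gm26495, neither of which shares an exon base with it.

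RefSeq promoter entries (GRCm38.p6) matched 2 of the 5 genes, the receptor genes Tek and Tie1. The 250 bases before the start site of each RefSeq entry are shown. Capitals mark the core of ETS family sites, GGAA or TTCC, read on both strands. The Tek sequence is on the forward strand at chr4:94739039-94739288 and the Tie1 sequence on the reverse strand at chr4:118489850-118490099. The RefSeq start of Tie1 differs from that of GENCODE M21, where the gene reaches 118490061. Most of the Tie1 sequence therefore lies inside the gene as placed above, not before it.
Tek: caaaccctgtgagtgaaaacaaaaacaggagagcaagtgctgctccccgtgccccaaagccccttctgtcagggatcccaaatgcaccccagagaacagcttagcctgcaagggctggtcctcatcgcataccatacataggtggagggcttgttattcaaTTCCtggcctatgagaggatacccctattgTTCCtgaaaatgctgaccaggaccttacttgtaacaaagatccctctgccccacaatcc
Tie1: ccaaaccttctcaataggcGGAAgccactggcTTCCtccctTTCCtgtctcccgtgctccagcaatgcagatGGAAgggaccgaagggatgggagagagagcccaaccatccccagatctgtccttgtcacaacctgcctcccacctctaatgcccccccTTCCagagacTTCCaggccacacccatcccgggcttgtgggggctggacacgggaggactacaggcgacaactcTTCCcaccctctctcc
The ETS core occurred 2 times in the Tek sequence and 7 times in the Tie1 sequence. Among 32851 promoter entries cut to the same length, 93.4% held at least 1 copy and the median was 3 copies. As many copies as Tek or more were found in 76.8%, and as many as Tie1 or more in 3.82%. The E-box CACGTG, the motif bound by BMAL1 with CLOCK, was found in neither sequence and in 6.02% of all entries. A GATA core (GATA or TATC), held by 53.6% of all entries, occurred 1 time for Tek and 0 times for Tie1. A forkhead core (AAACA or TGTTT), held by 46.4%, occurred 2 times for Tek and 0 times for Tie1. A match or its absence in these windows describes letters only.

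The libraries held 71145068 to 104017800 reads on genes. Values are normalized counts, that is, reads corrected for depth by a size factor per library (0.711 to 1.40). None of the 14 endothelial markers was at 0 in any library. Their summed level was 205938 to 433675 in control and 126940 to 267134 in Bmal1;CKO. Cldn5 alone gave 87590 to 201094 of it in control and 60099 to 116942 in Bmal1;CKO. With 1416 exon bases, Cldn5 weighed still more in the sum per kilobase given below. All 14 had a lower fitted level in Bmal1;CKO (median log2 fold change -0.47). This difference depended on single libraries, with 11 of 14 lower (median -0.12) without control library 1 and 10 of 14 (median -0.16) without Bmal1;CKO library 5. The sorted material also held RNA of other cells. The 9 microglia markers summed to 1386183 to 4103347 in control and 2013410 to 3985845 in Bmal1;CKO. Per kilobase of exon their sum was far above that of the endothelial markers in 6 of 6 libraries, at 1012380 to 3031920 against 58399 to 196805. For the 10 rod markers the sums were 611528 to 792861 and 386164 to 762934, above the endothelial sum per kilobase in 5 of 6 libraries. Arntl, the gene that encodes BMAL1, had 1700, 3489 and 2928 normalized counts in control and 1779, 2747 and 2415 in Bmal1;CKO, and the groups overlapped. The exons removed by Cre are not given in the sources used here and the count covers the whole gene, so this value does not check the genotype labels. By ddPCR on sorted endothelial cells, the authors reported significantly less Bmal1 transcript in mutants than in controls. In such bulk samples, fewer cells of a type and less RNA per cell cannot be told apart, which applies to every endothelial gene described here.

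None of the 5 genes passed the test for a difference between Bmal1;CKO and control VECs. Fitted levels of Tek, Ptprb, Tie1 and Angpt2 were lower in Bmal1;CKO and that of Angpt1 was higher, so 4 of 5 were lower, where 43.4% of the 20459 genes tested were lower by any amount. With edgeR and with DESeq2, where Angpt1 turned lower, it was 5 of 5. The median of all genes was also below 0 in those fits (-0.03), so the 43.4% does not apply to them. Genes with few reads are also part of the 43.4%. Over the 15046 genes that reached 10 reads in all 6 libraries, the limma-trend median was -0.006, beside 0.11 over all 20459. The 43.4% is therefore too low a baseline for Tek, Tie1, Ptprb and Angpt2, which are among those 15046. The count with an unadjusted p under 0.05 in limma-trend was 0 of 5, against 4.92% of all genes tested, and it was also 0 with edgeR and with DESeq2. The count whose groups of libraries did not overlap was 0 of 5, against 11.2% of all genes. The median log2 fold change was -0.47 over the 5 genes and 0.11 over all genes tested. Without Bmal1;CKO library 5 the median of the 5 genes was -0.02, with 3 lower and 2 higher, and without Bmal1;CKO library 6 it was -0.84. With edgeR and TMM scaling the median of all genes was -0.03, a shift to set beside each fold change from limma.

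**Figure D1:**
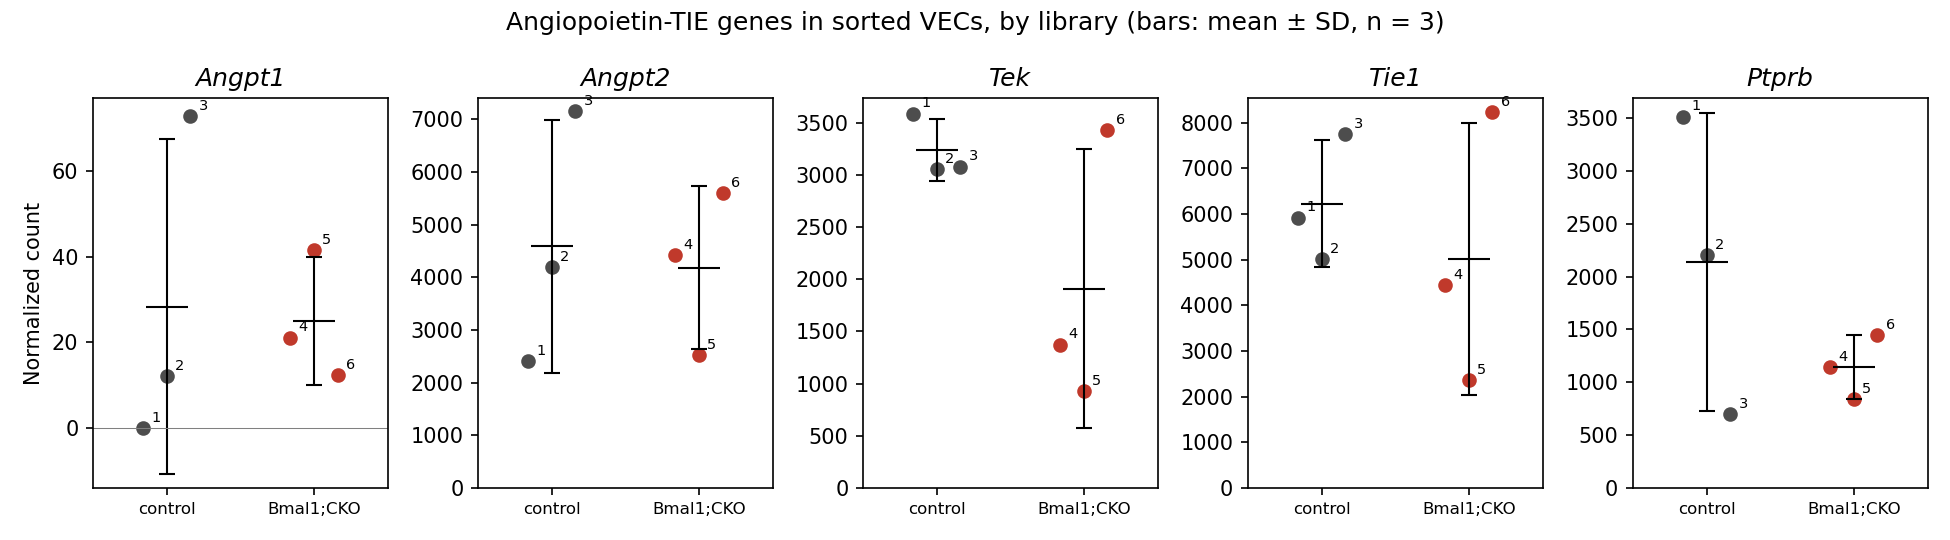
Normalized counts of the 5 angiopoietin-TIE genes in each library (y axis, a separate linear scale for each gene) for the control and Bmal1;CKO groups (x axis). Points are libraries with their number, and bars are the mean and SD of 3 libraries. The groups overlap for every gene, and Bmal1;CKO libraries 4 and 5 lie below all control libraries for Tek and Tie1.

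The receptor genes came first in abundance together with Angpt2. Normalized counts per kilobase of exon, which allow levels of different genes to be compared, averaged 1267 ± 283 for Tie1, 1242 ± 650 for Angpt2, 688 ± 63.7 for Tek, 160 ± 106 for Ptprb and 5.44 ± 7.50 for Angpt1 in control (SD, n = 3). In Bmal1;CKO they averaged 1019 ± 605, 1133 ± 419, 405 ± 283, 85.6 ± 22.6 and 4.80 ± 2.87 in the same order. Tie1 was above Tek, Tek above Ptprb, and Ptprb above Angpt1 in 6 of 6 libraries. The neighbours Angpt2 and Tie1 did not separate, since Angpt2 was the higher in 4 libraries and Tie1 in 2, and Angpt2 was above Tek in 5 of 6.

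Tek, which encodes the signalling receptor TIE2, had the most negative fitted log2 fold change of the 5 genes in limma-trend. With edgeR and TMM scaling Ptprb was the lower, at -0.89 against -0.75 for Tek, as it also was with DESeq2 and without control library 3. Tek had 3587, 3056 and 3079 normalized counts in control libraries and 1373, 926 and 3429 in Bmal1;CKO libraries 4, 5 and 6. The control libraries lay close together, 2 of the Bmal1;CKO libraries were below all of them, and Bmal1;CKO library 6 fell inside their range. The means were 3240 ± 300.0 and 1909 ± 1335 (SD, n = 3), and the Bmal1;CKO mean was 58.9% of that of control. The log2 fold change on log2(normalized count + 1) was -0.98 (SE 0.48, 95% interval -2.09 to 0.12, limma-trend adjusted p = 0.883), and the difference of means gave p = 0.3 in an exact two-sided permutation test over libraries, which cannot go below 0.1 with 3 libraries a group. The result turned on library 6, since without it the log2 fold change was -1.52 with an unadjusted p of 0.00424, and without library 5 it was -0.57 with an unadjusted p of 0.250.

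Tie1 encodes the orphan receptor that partners TIE2. Its normalized counts were 5919, 5018 and 7749 in control and 4442, 2361 and 8230 in Bmal1;CKO. As for Tek, libraries 4 and 5 were below all control libraries, while library 6 was the highest of all 6. The group means were 6229 ± 1392 and 5011 ± 2975 (SD, n = 3), a difference smaller than the spread within Bmal1;CKO. The fitted log2 fold change was -0.47 (SE 0.45, 95% interval -1.52 to 0.58, limma-trend adjusted p = 0.883). It ranged from -0.92 without library 6 to -0.02 without library 5, and did not change sign when any 1 library was left out.

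Within a library, the ratio of Tie1 to Tek does not depend on the scaling of the library. There were 1.65, 1.64 and 2.52 Tie1 reads for each Tek read in control and 3.24, 2.55 and 2.40 in Bmal1;CKO. The ratio was lowest in control libraries 1 and 2, and control library 3 fell between Bmal1;CKO libraries 5 and 6, so the groups overlapped. The mean log2 ratio was 0.92 ± 0.35 in control and 1.44 ± 0.23 in Bmal1;CKO (SD, n = 3), a difference of 0.51 with p = 0.2 in an exact two-sided permutation test. The difference lay between 0.38 and 0.72 when each library was left out in turn.

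Ptprb, the gene of the phosphatase VE-PTP, was the most variable of the 3 receptor-level genes in control. Its normalized counts were 3514, 2205 and 697 in control and 1142, 840 and 1443 in Bmal1;CKO. Control libraries 1 and 2 were above every Bmal1;CKO library and control library 3 was below every one of them. The means were 2139 ± 1410 and 1142 ± 301 (SD, n = 3), with the Bmal1;CKO mean at 53.4% of control. The log2 fold change was -0.65 (SE 0.60, 95% interval -2.04 to 0.73, limma-trend adjusted p = 0.883). Without control library 3 it was -1.32 with an unadjusted p of 0.0136, and without control library 1 it was -0.15 with an unadjusted p of 0.772.

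The balance of phosphatase to receptor was followed as Ptprb reads for each Tek read. The ratio was 0.980, 0.722 and 0.226 in control and 0.832, 0.908 and 0.421 in Bmal1;CKO. Each group had 1 library with a low ratio, control library 3 and Bmal1;CKO library 6, and the groups overlapped. The log2 ratio was higher by 0.33 in Bmal1;CKO (exact two-sided permutation p = 0.7), and was lower by 0.30 (difference -0.30) without control library 3.

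Angpt2 encodes the ligand that endothelial cells themselves release. It had 2407, 4192 and 7154 normalized counts in control and 4423, 2526 and 5593 in Bmal1;CKO. Both the lowest and the highest library belonged to control, and all Bmal1;CKO libraries lay between them. The means were 4584 ± 2398 and 4181 ± 1548 (SD, n = 3), and the log2 fold change was -0.07 (SE 0.47, 95% interval -1.15 to 1.01, limma-trend adjusted p = 0.981). Its sign depended on single libraries, with -0.46 without control library 1, 0.32 without control library 3 and 0.26 without Bmal1;CKO library 5.

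Angpt1, the gene of the mural cell ligand, was close to the limit of detection in these sorted cells. Reads numbered 0, 13 and 102 in control and 15, 48 and 15 in Bmal1;CKO, which gave 0, 12.1 and 72.9 and then 21.1, 41.5 and 12.4 normalized counts. The 0 in control library 1 allows up to 3 reads, or 3.69 normalized counts, with counting error alone considered. That library had the fewest genes with a read, 21598 against 22142 to 27904 in the others. It was also at 0 for Angpt4 and for Angptl2, which had 551 and 1424 normalized counts in control libraries 2 and 3. The part of such loss in the Angpt1 value was not tested. Control held both the lowest and the highest library. The mean was 28.3 ± 39.1 in control and 25.0 ± 14.9 in Bmal1;CKO (SD, n = 3), lower in Bmal1;CKO, whereas the log2 fold change was positive at 1.23 (SE 1.69, 95% interval -2.69 to 5.16, limma-trend adjusted p = 0.901). The sign rested on control library 1, without which the value was -0.42, and edgeR with TMM scaling gave -0.21. The 9 pericyte markers summed to 2638, 7668 and 49313 normalized counts in control and 9011, 4458 and 7517 in Bmal1;CKO. Control library 3 was highest for both the markers and Angpt1, and control library 1 was lowest for both. Bmal1;CKO library 5 went the other way, with the lowest marker sum and the highest Angpt1 level of its group. Of these markers, Abcc9 was at 0 in 1 library and Anpep in 2 libraries. Their part in the Angpt1 level was not tested.

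Reads of the endothelial ligand outnumbered those of the mural ligand wherever the ratio could be formed. There were 347 and 98.2 Angpt2 reads for each Angpt1 read in control libraries 2 and 3, and 210, 60.9 and 453 in Bmal1;CKO libraries 4 to 6. With a pseudocount of 1, which brings in control library 1, the difference in log2 ratio, Bmal1;CKO minus control, was -1.30 (exact two-sided permutation p = 0.5). This value came from the 0 in control library 1, without which it was -0.04, and it was -0.39 with a pseudocount of 10 and -2.36 without control library 3.

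**Figure D2:**
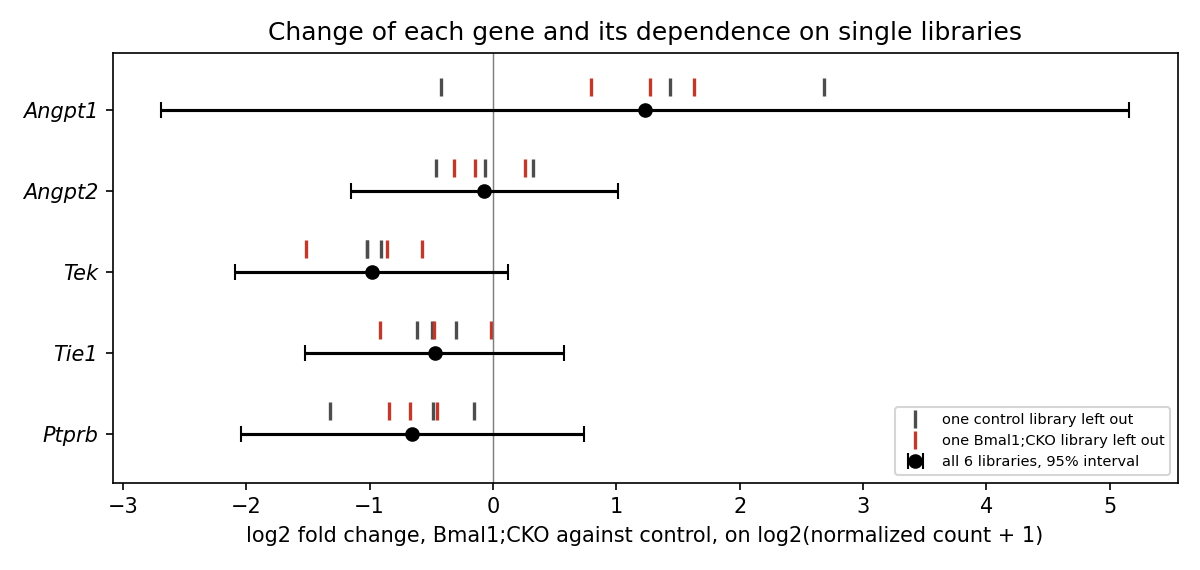
Log2 fold change of each gene in Bmal1;CKO against control on log2(normalized count + 1) (x axis), with its 95% interval from limma-trend over 6 libraries (black) and the values with 1 library left out (grey ticks for a control library, red ticks for a Bmal1;CKO library). Every interval holds 0, and the ticks of Angpt1 and Angpt2 lie on both sides of 0 while those of Tek, Tie1 and Ptprb stay below it.

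Because the endothelial markers also varied among libraries, each gene was set against them within the library. The mean log2 level of the 14 markers was 13.91, 12.93 and 12.89 in control and 12.90, 11.99 and 13.26 in Bmal1;CKO (difference -0.53, exact two-sided permutation p = 0.5). Library 5, with the lowest mean, was also the library with the lowest Tek and Tie1 levels. Relative to the markers, Tek was at -2.10, -1.36 and -1.30 on the log2 scale in control and -2.47, -2.14 and -1.52 in Bmal1;CKO. The groups overlapped through control library 1, and the difference was -0.46 (exact two-sided permutation p = 0.2), compared with -0.98 for the log2 fold change not set against the markers. It lay between -0.72 without Bmal1;CKO library 6 and -0.24 without Bmal1;CKO library 4.

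The corresponding difference was 0.06 for Tie1 (exact two-sided permutation p = 1) and -0.13 for Ptprb (exact p = 0.9), both smaller than the SD between libraries of a group. Angpt2 stood at -0.79, -0.69 and -0.81 relative to the markers in Bmal1;CKO, a narrow range, and at -2.68, -0.90 and -0.09 in control (difference 0.46, exact two-sided permutation p = 0.7). All Bmal1;CKO values lay inside the control range. For Angpt1 the difference was 1.76 (exact two-sided permutation p = 0.6). The part of endothelial content in the lower Tek and Tie1 levels was not tested beyond these values.

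**Figure D3:**
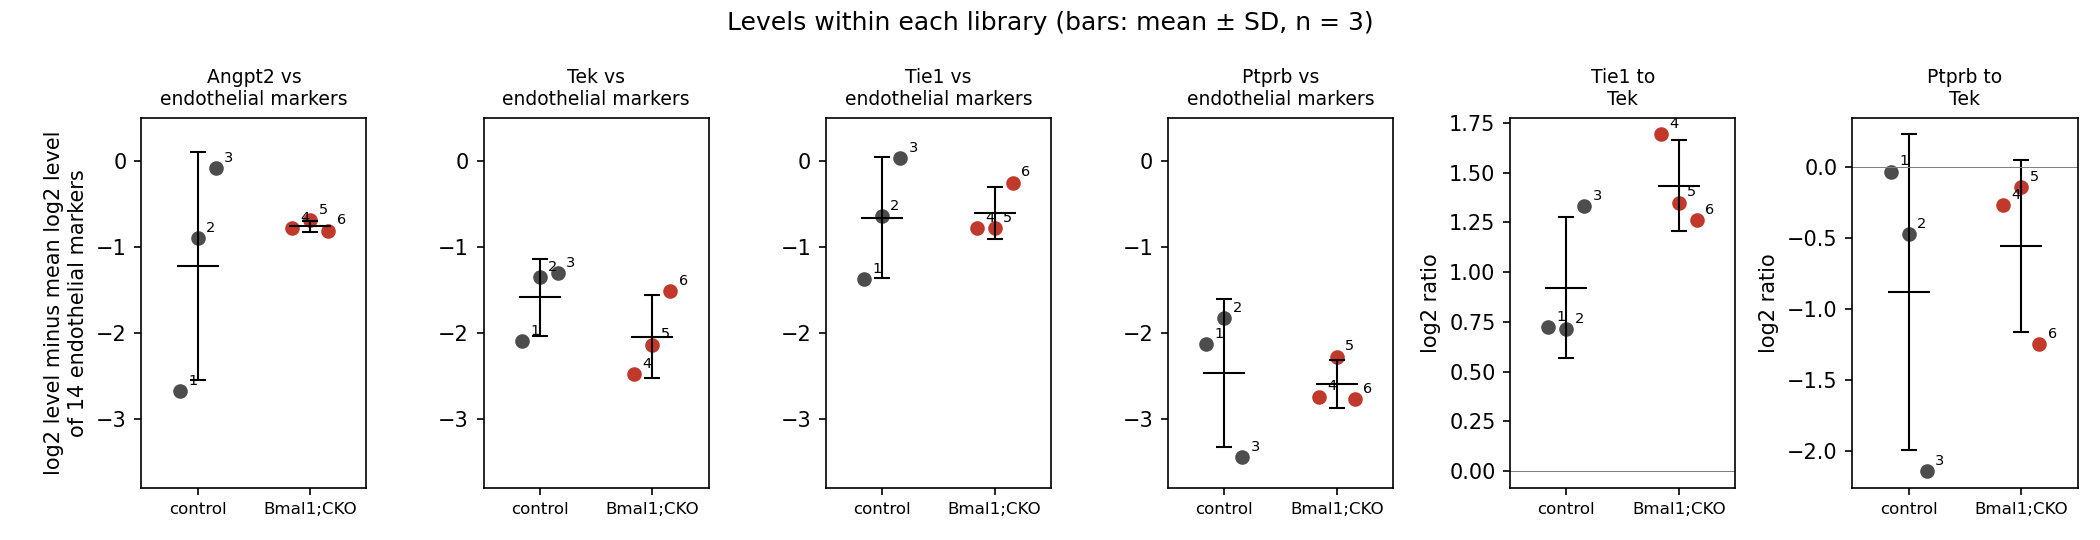
Levels within each library for control and Bmal1;CKO (x axis): log2 level of Angpt2, Tek, Tie1 and Ptprb minus the mean log2 level of 14 endothelial markers (first 4 panels), and the log2 ratios of Tie1 to Tek and of Ptprb to Tek (last panels, each with its own scale). Points are libraries with their number and bars are mean and SD of 3 libraries; groups overlap in every panel, and the Tie1 to Tek ratio is lowest in control libraries 1 and 2.

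Across the 6 libraries the receptor genes followed each other. Pearson's r of the log2 levels of Tek and Tie1 was 0.886, and of the 15046 genes that reached 10 reads in all 6 libraries, 0.857% were more like Tek than Tie1 was. Angpt2 and Tie1 had r = 0.677, and Angpt1 and Ptprb had r = -0.945, which rests in part on control library 1 with 0 Angpt1 reads. The points share library preparation, depth, scaling and cell content, and the coefficients are descriptions over 6 libraries. The genes most like each were Arfgef2 (r = 0.989), Gm5540 and Gm7378 for Tek, and Rhbdf1 (r = 0.991), Afap1l1 and Slc7a5 for Tie1. They were Ccn2 (r = 0.995), Scmh1 and Hic1 for Angpt2, 4933434E20Rik (r = 0.994), Rai2 and Mphosph9 for Ptprb, and Rasgef1b (r = 0.997), Rbm15b and Azin2 for Angpt1. With 15046 genes and 6 libraries, coefficients of this size are reached by some gene for each of the 5.

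The pathway around TIE2 was followed through 6 lists with 78 genes, of which 75 were tested. An unadjusted p under 0.05 was found for 6 of 75 (8%), 2 higher and 4 lower in Bmal1;CKO, and groups that did not overlap for 9 of 75 (12%), against 4.92% and 11.2% among all genes. None passed a false discovery rate of 0.05 (lowest adjusted p = 0.857 by limma-trend). In direction, 34 were higher and 41 lower. Cdh5, Kdr, Erg and Sox17 among them are also endothelial markers. The part of RNA from microglia and other cells in the values of these lists was not tested.

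Among the other TIE ligands and angiopoietin-like genes, 7 of 9 were tested and 0 had an unadjusted p under 0.05 (median log2 fold change 0.22). The median turned negative without control library 2 (-0.18), control library 3 (-0.05), Bmal1;CKO library 4 (-0.05) or Bmal1;CKO library 5 (-0.08), and was 1.25 without Bmal1;CKO library 6. Angpt4, the third TIE2 ligand, was at 0, 176 and 114 normalized counts in control and 88.6, 196 and 233 in Bmal1;CKO. Its groups overlapped, with a log2 fold change of 2.56 (SE 1.93) that rests on the 0 in control library 1. Angptl4 encodes a secreted lipase inhibitor and was at 3829 to 8505 in control and 3168 to 5965 in Bmal1;CKO. Svep1 and Angptl8 had too few reads to be tested.

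Of the 22 adaptor and PI3K-AKT genes, 12 were higher and 10 lower, with a median of 0.08. Pik3r1, a regulatory subunit of PI3K, had 3742, 3880 and 3360 normalized counts in control and 5084, 8662 and 5722 in Bmal1;CKO, with every Bmal1;CKO library above every control library (log2 fold change 0.79, SE 0.28, unadjusted p = 0.0223 by limma-trend). Without control library 3 its unadjusted p was 0.0517, and without Bmal1;CKO library 5 it was 0.103. Grb14, an adaptor that binds activated receptor kinases, had 1697, 577 and 399 in control and 366, 129 and 247 in Bmal1;CKO, again without overlap (log2 fold change -1.69, SE 0.71, unadjusted p = 0.0455). The unadjusted p of Grb14 was 0.0937 without control library 1, 0.0653 without control library 2, 0.144 without Bmal1;CKO library 5 and 0.0833 without Bmal1;CKO library 6. Akt1, the kinase downstream, was at 11172 to 26572 in control and 17067 to 20779 in Bmal1;CKO, with overlap.

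FOXO1, which AKT restrains, and genes known as FOXO targets made up a list of 15, 10 of them higher and 5 lower in Bmal1;CKO (median 0.27), or 8 and 7 with edgeR and TMM scaling. Among all genes tested, 43.4% were lower and the median was 0.11 by limma-trend. All 15 reached 10 reads in all 6 libraries, and over the genes that did so that median was -0.006. The median of the list was 0.59 without control library 1, 0.16 without control library 2 and 0.14 without Bmal1;CKO library 6. Irs2, an adaptor of insulin and IGF receptors, had 4533, 3475 and 3868 normalized counts in control and 11191, 11851 and 6242 in Bmal1;CKO. All Bmal1;CKO libraries were above all control libraries (log2 fold change 1.25, SE 0.31, unadjusted p = 0.00406, adjusted p = 0.857 by limma-trend). It was the only pathway gene with an unadjusted p under 0.05 that kept it with each library left out in turn, at 1.09 to 1.55. Bcl2l11, which encodes the death-promoting protein BIM, also did not overlap, at 615 to 697 in control and 906 to 1085 in Bmal1;CKO, without an unadjusted p under 0.05 (0.107). Foxo1 itself was at 6094, 1851 and 4162 in control and 5921, 3700 and 5116 in Bmal1;CKO, with overlap, and Klf2, a flow-responsive factor, had 9474 to 47503 and 28138 to 41842. The microglia markers were higher in 8 of 9 cases (median 0.40, but 0.07 without control library 2 and 0.74 without control library 1), and their part in these values was not tested.

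Of the VE-PTP partners and other receptor phosphatases, 11 of 12 were tested, 3 were higher and 8 lower, and 0 had an unadjusted p under 0.05 (median -0.62, beside -0.47 for the endothelial markers). The median was -0.19 without control library 1, -0.32 without Bmal1;CKO library 5 and -0.94 without Bmal1;CKO library 6. Cdh5, which encodes VE-cadherin, was at 7151, 2664 and 2325 normalized counts in control and 2551, 1089 and 3730 in Bmal1;CKO. Kdr, the gene of VEGFR2, was at 10214 to 19293 in control and 5126 to 10717 in Bmal1;CKO. Both overlapped between groups.

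Integrins that bind angiopoietins or TIE2 and proteases that shed TIE receptors formed a list of 8, 3 higher and 5 lower (median -0.15). Without control library 1 this turned to 5 higher and 3 lower (median 0.15), and without Bmal1;CKO library 5 it was 4 of each (median 0.03). Itgb1, the integrin β1 subunit, had 13269, 13767 and 22671 normalized counts in control and 7127, 7971 and 11591 in Bmal1;CKO (log2 fold change -0.88, SE 0.31, unadjusted p = 0.0232 by limma-trend). Adam10, a membrane protease, had 4785, 3249 and 4302 in control and 1781, 1788 and 2896 in Bmal1;CKO (log2 fold change -0.95, SE 0.31, unadjusted p = 0.0163). Neither overlapped between groups. The unadjusted p of Itgb1 was 0.0659 without control library 3, 0.0818 without Bmal1;CKO library 4 and 0.0747 without library 5, and that of Adam10 was 0.0571 without library 4 and 0.0634 without library 5. Adam17, a related sheddase, did not overlap either, at 2818 to 4697 in control and 2443 to 2786 in Bmal1;CKO, with an unadjusted p of 0.151.

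Of 12 transcription factors known to act at Tek, Tie1 or Angpt2, 11 were lower and 1 higher (median -0.20). The 43.4% of all genes tested that were lower is too low a baseline for these 12. All of them reached 10 reads in all 6 libraries, and over the genes that did so the limma-trend median was -0.006. The direction of the list rested on single libraries, with 5 lower and 7 higher (median 0.19) without control library 1 and 6 of each (median -0.01) without Bmal1;CKO library 5. Hif1a, the oxygen-regulated factor, had 5756, 5951 and 6448 normalized counts in control and 1233, 3367 and 3789 in Bmal1;CKO, without overlap (log2 fold change -1.27, SE 0.43, unadjusted p = 0.0200 by limma-trend). Without control library 3 its unadjusted p was 0.0535. The ETS factor Erg was at 3088, 986 and 575 in control and 506, 320 and 857 in Bmal1;CKO, with overlap, and Ets1 was at 4689 to 8070 and 2806 to 8160.

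**Figure D4:**
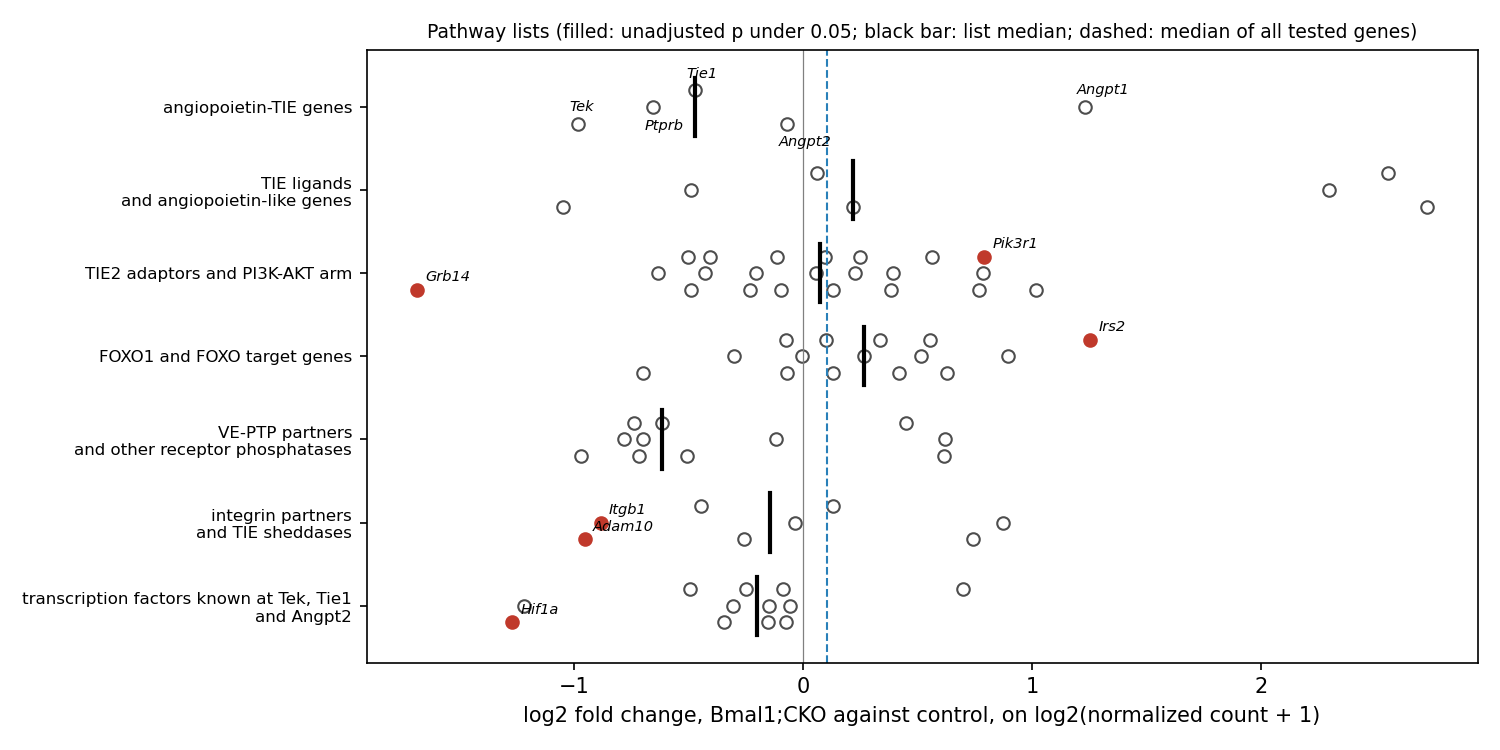
Log2 fold change in Bmal1;CKO against control (x axis) of the 5 genes and of the 75 tested genes of 6 pathway lists (rows). Filled points have an unadjusted p under 0.05 in limma-trend, black bars mark list medians and the dashed line the median of all tested genes (0.11). The 6 filled points are Grb14, Pik3r1, Irs2, Itgb1, Adam10 and Hif1a, and none is among the 5 angiopoietin-TIE genes.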

How the data were processed

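Amplification of VEC RNA used the Smart v4 kit, and libraries were made with Nextera XT, 3 per group. The authors used FastQC, Trimmomatic, Bowtie on mm10 (Ensembl GRCm38 v87), featureCounts and DESeq2. Versions of these tools and the use of strand are not given in the sources used here. The deposited values are a signal per gene and library, the count divided by a DESeq2 size factor, and dividing each column by its smallest step returned whole reads for 100% of values (tolerance 0.01). Depth was 71145068 to 104017800 reads, and the 0 limit of 3 reads covers counting error only. The table's own mean, fold change, standard error and p-value columns hold the authors' comparison and were not used. Its columns name the genotype but number it differently from the sample titles, so each was used as a replicate of its group, and p-values measure the spread between these samples.

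Genes reaching 10 reads in 3 or more libraries were fitted with limma-trend (limma 3.58.1, R 4.3.3) on log2(normalized count + 1), genotype alone, with Benjamini-Hochberg adjustment over all 20459. Ratios and levels relative to endothelial markers were compared with exact two-sided permutation tests. Scripts were tested on simulated data. Alternatives were edgeR 4.0.16 (TMM or DESeq2 size factors), DESeq2 1.42.0, limma-voom, TMM-scaled log2 CPM, pseudocounts of 0.5 and 10, other filters, no trend, other marker summaries and leaving out each library. Genes named were the 5 members, genes of the pathway lists, and the 3 genes with the highest Pearson r to each member. The members and lists were chosen with earlier results of these data known, and which list genes to describe was decided after their values were seen. Figures were drawn with matplotlib 3.10.9, and tables were made with scipy 1.17.1, numpy 2.4.6 and pandas 2.3.3 in Python 3.11.15.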

Additional observations from a re-analysis of the deposited data

How the results depend on the processing

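Tek, Tie1 and Ptprb kept a lower level in Bmal1;CKO in all 16 alternatives, Tek from -1.52 to -0.57, Tie1 from -0.92 to -0.02 and Ptprb from -1.32 to -0.15 on the log2 scale, and none of the 5 genes passed a false discovery rate of 0.05 in any. Angpt1 reversed to -0.21 with edgeR and TMM, -0.19 with edgeR and DESeq2 size factors and -0.18 with DESeq2, and ranged from -0.42 to 2.68 with 1 library left out. It had no value where 10 reads were required in every library. Angpt2 ranged from -0.46 to 0.32 with 1 library left out. The count of the 5 genes with an unadjusted p under 0.05 was 0 in the 10 other alternatives and 0 to 1 with 1 library left out. It was 1 without control library 3 (Ptprb) and without Bmal1;CKO library 6 (Tek). In those fits 11.9% and 2.86% of all genes had such a p. Among pathway genes the count was 2 to 10 of 75 with 1 library left out and 3 with limma without the trend. The share of all genes moved too, at 1.64% without Bmal1;CKO library 5 (2 pathway genes), 8.63% without control library 1 (10) and 4.51% without the trend. These pathway alternatives were added after seeing the data. With 1 library left out, the log2 Ptprb to Tek difference ranged from -0.30 to 0.76, the Angpt2 to Angpt1 difference from -2.36 to -0.04, and the differences relative to endothelial markers from -0.22 to 3.39 (Angpt1), -0.27 to 1.03 (Angpt2), -0.72 to -0.24 (Tek), -0.30 to 0.40 (Tie1) and -0.62 to 0.19 (Ptprb). With the median of the markers, Tie1 was at -0.13. The cause of these changes was not tested. Across all genes, 0 passed a false discovery rate of 0.05 with limma-trend, limma-voom or edgeR over 6 libraries, 67 with DESeq2, 61 with limma without the trend, 1 with each other filter and 6 without control library 1. No paired analysis was possible because the columns of the table carry no replicate number that matches the labels. Angpt1 is limited by its 0 to 102 reads, and with 3 libraries a group the exact tests cannot go below p = 0.1.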
